A study of Mus musculus with 24 samples.

Results

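The 10 genes described here encode transcription factors that set the myeloid fate of blood progenitors: Cebpa, Cebpb, Cebpd, Cebpe, Spi1, Irf8, Gfi1, Id1, Id2 and Zeb2. They were chosen by name and are 10 of the 55414 genes listed in each library. All 10 were matched by symbol and all 10 passed the filter on low counts. They were followed in 24 RNA sequencing libraries of LSK cells, the bone marrow fraction that lacks lineage markers, carries Sca-1 and Kit and holds hematopoietic stem cells and multipotent progenitors. The cells came from 21-day-old pups of C57BL/6J dams, and the study asked what a Western diet of the dam changed in female and in male offspring. The 4 groups were female and male pups of dams on Western diet (TD.88137), and female and male pups of dams on regular chow (2018SX), with 6 libraries each. Both diets began before mating and went on through pregnancy and lactation, so the pups met the diet only through the dam and her milk up to the day of harvest. LSK cells were sorted from lineage-depleted marrow of leg and hip bones, and RNA with an integrity number above 8.0 was used. Per the labels, every one of 3 batches holds 2 libraries from each group, and what a batch is they do not say. Which pups share a dam or a litter is not labelled either, so the p-values reflect only how much the 24 libraries vary, and pups of one litter need not be independent.

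Myeloid fate is set by a small network of transcription factors acting in progenitors. PU.1, encoded by Spi1, opens myeloid enhancers, C/EBPα is required for the step to granulocyte-monocyte progenitors, and GFI1 and IRF8 then pull toward neutrophils and toward monocytes and dendritic cells. The ID proteins cannot bind DNA themselves and act by holding E proteins away from it, while ZEB2 represses genes of other fates. Low amounts of several of these factors in uncommitted LSK cells are known as myeloid priming.

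Libraries held 38057263 to 51581968 counts in genes, and 25673 to 27858 genes were detected per library. On the first principal component, which carried 18.9% of the variance, both female control libraries of batch 3 (replicates 5 and 6) lay farthest out, at -137.8 and -127.4, with the next library at -88.7. Diet calls of the members and of the other genes named are given with and without them. Kit, one of the genes that define LSK cells, averaged 536 CPM (the usual depth-scaled count, here on library sizes corrected by TMM), and Ly6a, which encodes Sca-1, averaged 14.1 CPM. Summed over 8 LSK and stem cell genes, control females 5 and 6 had 993 and 969 CPM, the lowest of all 24 libraries. The next library, a Western-diet female of batch 3, had 1020 CPM. The part of this level in the diet values was not tested. In bulk RNA, fewer cells of a type and less RNA per cell cannot be told apart.

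Per length, the members fell into a high, a middle and a low tier. Irf8 stood highest at 36.5 CPM per kilobase of exon, followed by Spi1 at 33.6 and Id2 at 29.8 (means over 24 libraries). The SDs over libraries were 10.4 for Irf8, 18.9 for Spi1 and 12.4 for Id2, so the order within this tier did not exceed the spread. Cebpe at 10.2, Id1 at 9.45, Zeb2 at 5.98 and Cebpa at 4.44 CPM per kilobase formed the middle tier. Gfi1 at 1.68, Cebpb at 1.43 and Cebpd at 0.678 CPM per kilobase were lowest. Irf8 lay at the 87.4th percentile of the 14000 protein-coding genes tested, and Cebpd at the 22.4th. The SDs of neighbours in the order overlapped throughout the middle and the low tier, and those of Id2 and Cebpe (12.4 and 8.04 CPM per kilobase) overlapped too, so the border between the high and the middle tier did not exceed the spread either. Cebpb was counted with 26 to 176 reads per library and Gfi1 with 86 to 397, against 5163 to 18323 for Irf8.

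**Figure D1:**
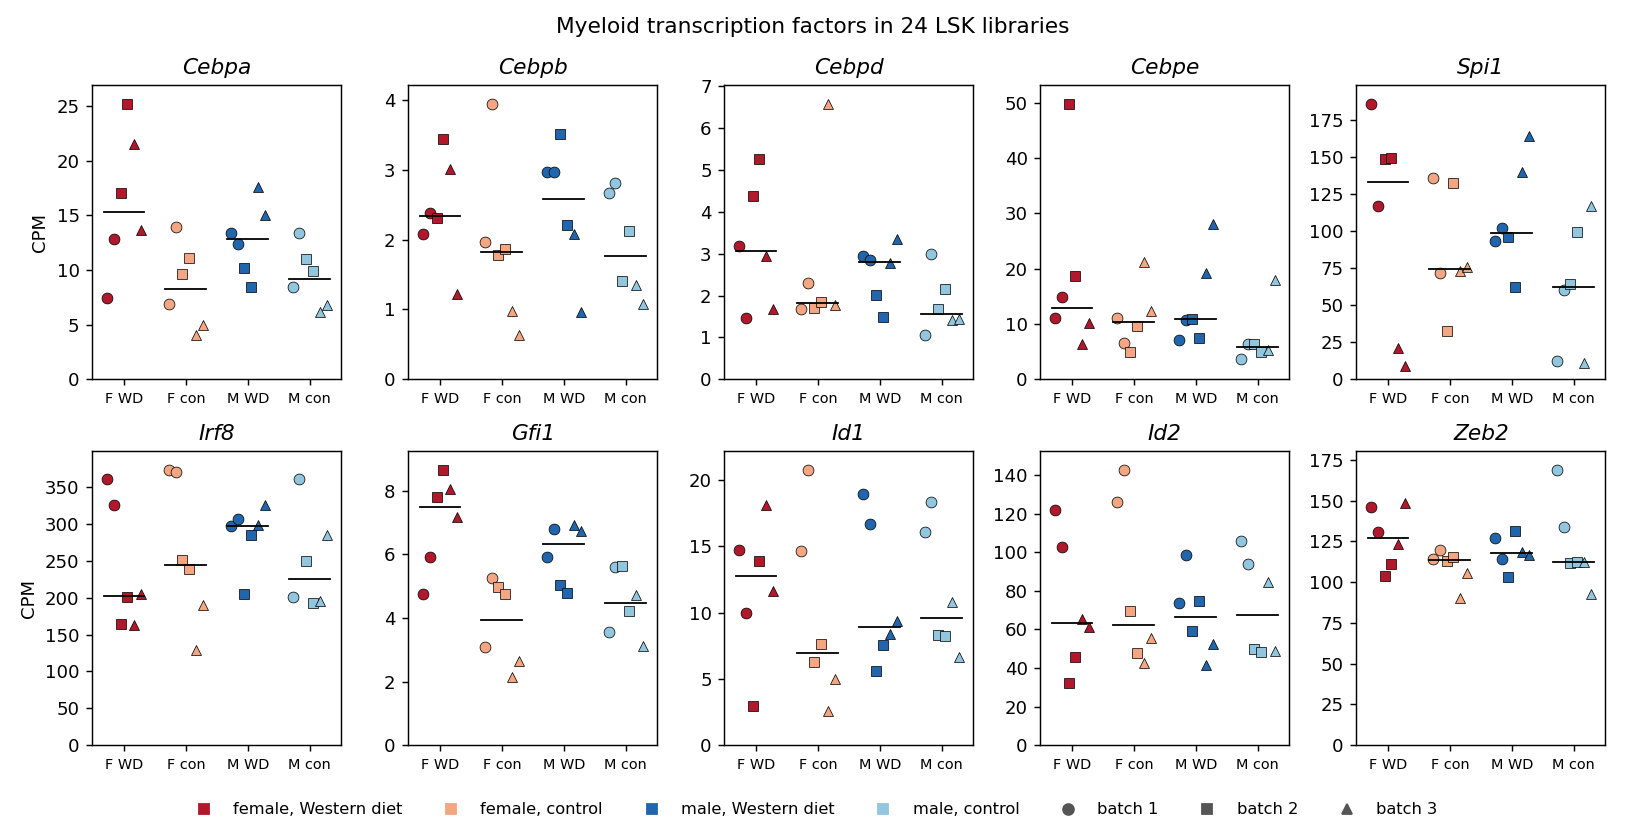
Level of each member in CPM (vertical axis, linear and starting at 0) in every library, by group, for female (F) and male (M) pups of Western-diet (WD) and control (con) dams, with the horizontal bar at the group median. Marker shape gives the batch. Gfi1 sits at 4.76 to 8.64 CPM in Western-diet females and at 2.14 to 5.26 CPM in control females, while Spi1 spans 9.17 to 185 CPM within the Western-diet females alone.

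Gfi1 and Cebpa, a pair of genes central to the granulocyte branch, were the members called for diet in any of the comparisons below, so their upstream sequences are shown. Each run is the 250 bases before the annotated start of transcription in RefSeq (build GRCm38.p6), read on the gene's own strand at chr7:35119043-35119292 (+) for Cebpa and at chr5:107724344-107724593 (-) for the inner of the Gfi1 starts. Neither window overlaps an annotated exon. Capitals mark the matches to the motifs searched, a TATA box in Cebpa and an E-box in Gfi1.
Cebpa: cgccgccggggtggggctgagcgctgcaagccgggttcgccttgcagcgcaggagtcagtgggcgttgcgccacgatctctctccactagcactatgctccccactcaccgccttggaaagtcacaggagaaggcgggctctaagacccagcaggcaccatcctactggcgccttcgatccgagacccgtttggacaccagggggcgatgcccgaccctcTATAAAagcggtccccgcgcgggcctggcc
Gfi1: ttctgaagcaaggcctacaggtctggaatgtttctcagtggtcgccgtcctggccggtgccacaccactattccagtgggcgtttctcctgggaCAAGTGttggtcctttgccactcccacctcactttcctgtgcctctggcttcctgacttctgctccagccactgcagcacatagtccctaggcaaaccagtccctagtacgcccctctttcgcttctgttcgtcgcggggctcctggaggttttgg
The motifs were searched on both strands. The TATA box TATAAA was found once before Cebpa, 30 bases upstream of the start, and 12.4% of all 32851 RefSeq promoter windows of this length hold it. The E-box CANNTG, the site of E proteins and of other basic helix-loop-helix factors, was found once before Gfi1, 156 bases upstream, and 66.2% of windows hold one. Neither window held the C/EBP letters TTGCNNAA, which 9.56% of all windows hold, or the CCAAT box, which 33.8% hold. The core GAGGAA bound by PU.1, present in 23.3% of windows, was also in neither. The same went for the core AATCAC bound by GFI1, present in 9.14% of windows.

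Gfi1 encodes a zinc-finger repressor that restrains proliferation of stem cells and favours neutrophils over monocytes. It had 4.76 CPM in the lowest, 7.47 in the median and 8.64 in the highest Western-diet female library, against 2.14, 3.92 and 5.26 CPM in control females. Of the 6 Western-diet female libraries 5 lay above every control female, and the lowest overlapped the controls. Gfi1 rose 1.87-fold in Western-diet females, with means of 7.05 ± 1.46 and 3.81 ± 1.34 CPM (SD, n = 6 each), a log2 fold change of 0.90 with a standard error (SE) of 0.22 and an adjusted p of 0.0142 (edgeR quasi-likelihood test, Benjamini-Hochberg over all 19616 genes tested, called under 0.05). It was the only member called in females, 1 of 10, where 5.42% of all genes tested were called and 2.2% were called higher. The difference was positive in each batch, at 0.39, 0.75 and 1.66 on the log2 scale in batches 1, 2 and 3, and it was largest in batch 3. In that batch the Western-diet females had 8.06 and 7.16 CPM, against 2.14 and 2.63 CPM in the control females that stood apart. Without those 2 control libraries the log2 fold change was 0.61 and the adjusted p was 0.250. Leaving out either one alone also ended the call, with log2 fold changes of 0.77 without replicate 5 and 0.82 without replicate 6 and adjusted p of 0.0508 and 0.0561. The value stayed positive in all 41 other settings tried, between 0.35 and 1.66, and was called in 33 of them, with adjusted p from 0.000855 to 0.961.

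In males, Gfi1 had 4.80 CPM in the lowest, 6.32 in the median and 6.91 in the highest Western-diet library, against 3.10, 4.47 and 5.64 CPM in controls. Here 4 of 6 Western-diet libraries lay above every control and the groups overlapped. The log2 fold change of 0.45 (SE 0.21) had an unadjusted p of 0.0465 and an adjusted p of 0.590, so it was not called. It was 0.50, 0.01 and 0.83 in the 3 batches. None of the 10 members was called for diet in males by edgeR, DESeq2 or limma-voom, where edgeR called 0.0102% of all genes. At an unadjusted p under 0.05 edgeR and DESeq2 counted 1 member each and limma-voom 2. At that threshold edgeR counted 1657 of all 19616 genes tested. Averaged over the sexes, a contrast that uses the same libraries as the comparisons within each sex, Gfi1 rose 1.597-fold (log2 fold change 0.68, SE 0.15, adjusted p = 0.00872). Without both female control libraries of batch 3 this average was 0.52, with an adjusted p of 0.0610. Over its 40 alternatives the adjusted p of the average lay between 0.000338 and 0.713.

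Cebpa, the founding member of the C/EBP family and the factor that carries progenitors into the granulocyte-monocyte branch, had 7.48 CPM in the lowest, 15.3 in the median and 25.2 in the highest Western-diet female library. Control females had 4.01, 8.27 and 13.9 CPM. In females 3 of 6 Western-diet libraries exceeded every control and the rest overlapped. The means were 16.3 ± 6.37 and 8.43 ± 3.81 CPM (SD, n = 6 each), and the log2 fold change of 0.98 (SE 0.29) had an adjusted p of 0.0514, just above the threshold. In males the means were 12.8 ± 3.26 CPM with Western diet and 9.29 ± 2.71 CPM in controls, with a log2 fold change of 0.51 (SE 0.29) and an adjusted p of 0.658. Averaged over the sexes Cebpa rose 1.68-fold (log2 fold change 0.75, SE 0.21, adjusted p = 0.0346), and with Gfi1 it was 1 of 2 members called there, where 5.7% of all genes were called and 2.19% were called higher. The call was lost when any one of 12 libraries was left out, with adjusted p of 0.0509 to 0.0818. These were Western-diet females 4 and 5, control females 1, 5 and 6, Western-diet males 1, 2, 5 and 6, and control males 4, 5 and 6. Within batches the female difference was 0.00, 0.99 and 1.93 and the male one 0.27, -0.17 and 1.32 on the log2 scale, so the male value turned sign in batch 2. Without both female control libraries of batch 3 the average was 0.53, with an adjusted p of 0.192. Over its alternatives the adjusted p of the average lay between 8.33e-06 and 0.934, and the call held in 20 of 40.

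**Figure D2:**
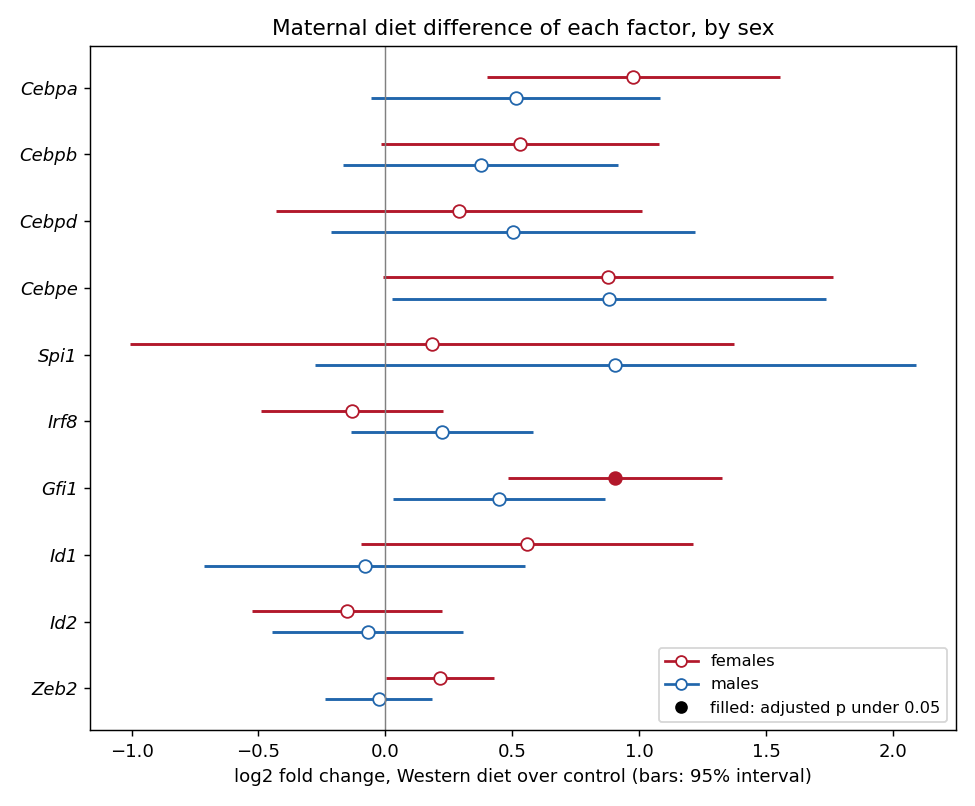
Log2 fold change for maternal diet (horizontal axis, Western diet over control) of each member, in females and in males, with 95% intervals (normal approximation from the SE) as lines. Filled points passed an adjusted p of 0.05. Gfi1 in females at 0.90 is the only filled point, and Spi1 has the widest intervals.

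The other C/EBP genes had positive values that did not pass the test. Cebpe encodes the factor of late granulocyte maturation, which drives secondary granule genes. It had 6.42 CPM in the lowest, 12.97 in the median and 49.8 in the highest Western-diet female library, against 5.02, 10.4 and 21.2 CPM in control females. A single library, Western-diet female replicate 3 in batch 2, held the highest level of Cebpe, and all other Western-diet females overlapped the controls. The log2 fold change was 0.88 in females (SE 0.45, adjusted p = 0.270) and 0.88 in males (SE 0.44, adjusted p = 0.605). The female value was 0.58, 2.13 and -0.99 in the 3 batches, so it did not keep its sign. In males Cebpe had 7.17, 10.8 and 28.03 CPM with Western diet (lowest, median and highest), against 3.73, 5.83 and 17.9 CPM in controls, and the batch differences of 0.84, 0.70 and 1.25 were all positive.

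Cebpb, the C/EBP factor of emergency granulopoiesis, had 1.22, 2.34 and 3.44 CPM in Western-diet females (lowest, median and highest), against 0.634, 1.82 and 3.94 CPM in control females. The highest of these libraries was a control, and the groups overlapped. Its log2 fold change was 0.53 in females (SE 0.28, adjusted p = 0.280) and 0.38 in males (SE 0.28, adjusted p = 0.735). Cebpd, an acute-phase member of the family induced by cytokines, had 1.47, 3.07 and 5.27 CPM in Western-diet females, against 1.68, 1.81 and 6.57 CPM in control females. The highest Cebpd value of all libraries was in a control female, replicate 5. The log2 fold change of Cebpd was 0.29 in females (SE 0.37, adjusted p = 0.715) and 0.50 in males (SE 0.37, adjusted p = 0.734).

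Spi1 and Irf8 lead the monocyte and dendritic branch. Spi1 had 9.17, 133 and 185 CPM in Western-diet females (lowest, median and highest), against 32.4, 74.2 and 136 CPM in control females. Both Western-diet females of batch 3, at 21.4 and 9.17 CPM, lay below every control female, and 3 of the other Western-diet females lay above every one. In males Spi1 had 62.3, 98.6 and 164 CPM with Western diet and 11.04, 62.2 and 116 CPM in controls. Control males held libraries at 12.3 CPM in batch 1 and 11.04 CPM in batch 3, far below the other 4 control males. Within batches the female log2 difference was 0.58, 1.19 and -2.40 and the male one 1.84, -0.05 and 2.08. The fitted log2 fold change was 0.18 in females (SE 0.61, adjusted p = 0.908) and 0.91 in males (SE 0.60, adjusted p = 0.711), with a 95% interval of -1.01 to 1.38 in females, so neither a doubling nor a halving of Spi1 lay outside it.

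Irf8, which directs progenitors to monocytes and dendritic cells and away from neutrophils, had 163, 203 and 361 CPM in Western-diet females, against 129, 245 and 373 CPM in control females. In males it had 204, 297 and 326 CPM with Western diet and 193, 226 and 361 CPM in controls. The groups overlapped over nearly their whole range in both sexes. The log2 fold change was -0.13 in females (SE 0.18, adjusted p = 0.751) and 0.22 in males (SE 0.18, adjusted p = 0.758). Zeb2, a zinc-finger repressor needed for several myeloid and lymphoid fates, was the steadiest member, with a coefficient of variation of 14.8% over all libraries. It had 104, 127 and 149 CPM in Western-diet females, against 90.0, 114 and 120 CPM in control females, and 4 of 6 Western-diet females exceeded every control. The log2 fold change of Zeb2 was 0.21 in females (SE 0.11, adjusted p = 0.257) and -0.03 in males (SE 0.11, adjusted p = 0.967).

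Id1 and Id2 encode inhibitors of E proteins, and ID2 also supports dendritic and innate lymphoid fates. Id1 had 2.97, 12.8 and 18.1 CPM in Western-diet females, against 2.56, 6.93 and 20.7 CPM in control females. Both the lowest and the highest Id1 library of the females were controls. Its log2 fold change was 0.56 in females (SE 0.33, adjusted p = 0.352) and -0.08 in males (SE 0.32, adjusted p = 0.965). The female value was -0.52 and -0.10 in batches 1 and 2 and 2.01 in batch 3. Id2 had 32.1, 63.4 and 122 CPM in Western-diet females, against 42.6, 62.5 and 143 CPM in control females, with medians close together. The log2 fold change of Id2 was -0.15 in females (SE 0.19, adjusted p = 0.714) and -0.07 in males (SE 0.19, adjusted p = 0.943).

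Across the 10 members the median log2 fold change for diet was 0.41 in females and 0.41 in males, beside 0.03 and 0.02 over all genes tested, and 8 members had positive values in females and 7 in males. The members were chosen with earlier results of these data known, so these values are descriptive and were not tested as a set. No member's groups were free of overlap in either sex, while 1.18% of all genes in females and 0.5% in males were. The diet effect of a member was not shown to differ between the sexes. The male minus female difference lay between -0.64 for Id1 and 0.72 for Spi1. By edgeR, DESeq2 or limma-voom 0 members were called, with 0% of all genes called by edgeR. In any of these tools 0 members reached an unadjusted p under 0.05, where 1633 of all 19616 genes did in edgeR. For Gfi1 the difference was -0.46, with a 95% interval of -1.05 to 0.13, and for Cebpa -0.46, with an interval of -1.26 to 0.33. Sex itself gave no call among the members by any of the 3 tools. In Western-diet pups the male minus female log2 difference ran from -0.59 for Cebpe to 0.35 for Irf8, and in control pups from -0.59 for Cebpe to 0.37 for Id1. In both, 0 members reached an unadjusted p under 0.05, where in edgeR 1324 of 19616 genes did in Western-diet pups and 2583 in control pups. At the adjusted threshold edgeR called 0.0816% of all genes in Western-diet pups and 0.112% in control pups.

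The members called for batch were not those called for diet, and the effects of batch and diet were not tested against each other. In the fit that holds the groups constant, the batch term was called for Id2, Id1, Cebpb and Irf8, 4 of 10 members, where it was called for 24.2% of all genes. Id2 averaged 108 ± 21.4 CPM in batch 1, 53.5 ± 13.7 in batch 2 and 56.6 ± 14.1 in batch 3 (SD, n = 8 each, adjusted p = 0.000121 in edgeR). Id1 averaged 16.3, 7.55 and 9.07 CPM in batches 1, 2 and 3 (adjusted p = 0.00777), and Irf8 324.5, 223 and 224 CPM (adjusted p = 0.0121). All 3 genes averaged higher in batch 1 than in the other batches. Cebpb averaged 2.72, 2.33 and 1.41 CPM (adjusted p = 0.0103) and was lowest in batch 3. Gfi1 averaged 5.11, 5.73 and 5.18 CPM and Cebpa 11.1, 12.8 and 11.2 CPM, with no call for batch (adjusted p = 0.612 and 0.651). Since each batch holds 2 libraries of every group, a shift shared by all groups of a batch does not enter the diet differences.

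**Figure D3:**
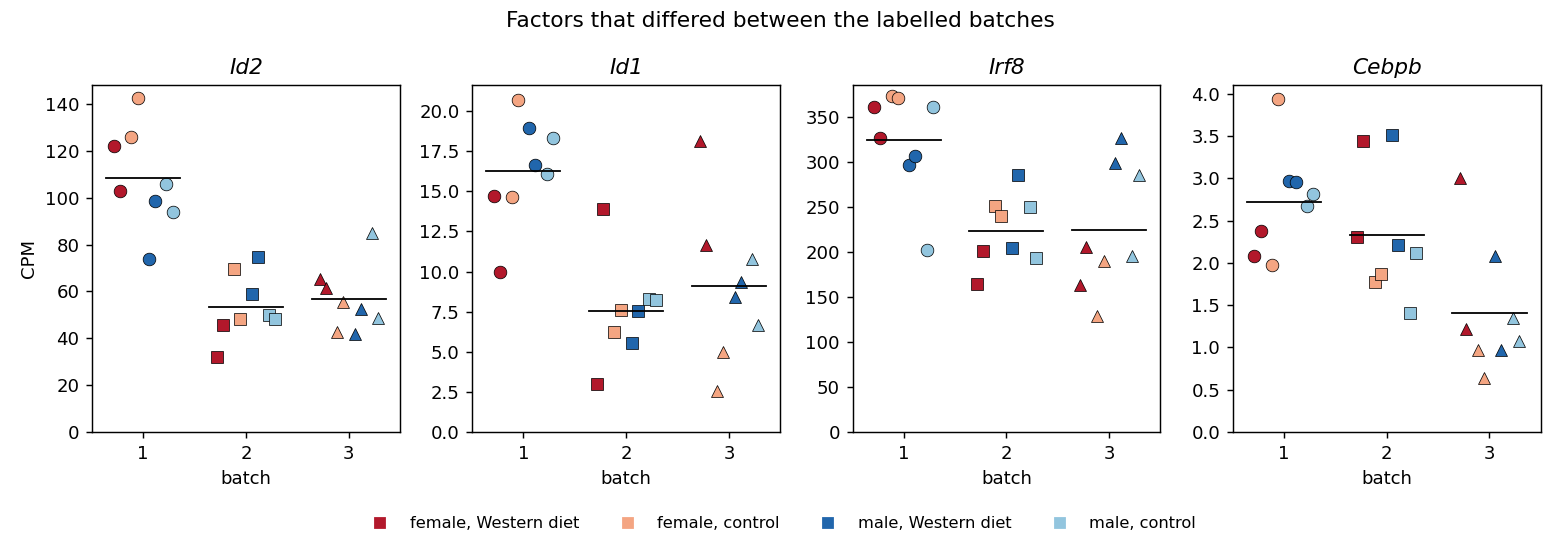
CPM of Id2, Id1, Irf8 and Cebpb in each library (vertical axis, linear and starting at 0), by batch (horizontal axis), coloured by group, with the bar at the batch mean. Id2 averages 108 CPM in batch 1, 53.5 CPM in batch 2 and 56.6 CPM in batch 3, and Cebpb is lowest in batch 3 at 1.41 CPM.

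The members did not vary as one block over the 24 libraries. Of the 45 pairs, 13 had a Pearson correlation of log2 CPM with an adjusted p under 0.05 (permutation test with 100000 resamples, adjusted over 45 pairs), 11 of them positive and 2 negative. Libraries were shuffled freely over groups and batches, so shifts shared by a batch or group enter these p-values. With group and batch means removed the number of pairs was 11. Gfi1 and Cebpa were the closest pair, with r = 0.93 and Spearman rho = 0.92 over 24 libraries. Both had a permutation p of 1e-05, the smallest that 100000 resamples can give, and an adjusted p of 0.00045. The correlation was 0.89 without the 2 libraries farthest from the Cebpa median, 0.83, 0.93 and 0.95 within batches 1, 2 and 3, and 0.88 after group and batch means were removed. It was also positive within each of the 4 groups, from 0.64 to 0.98.

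**Figure D4:**
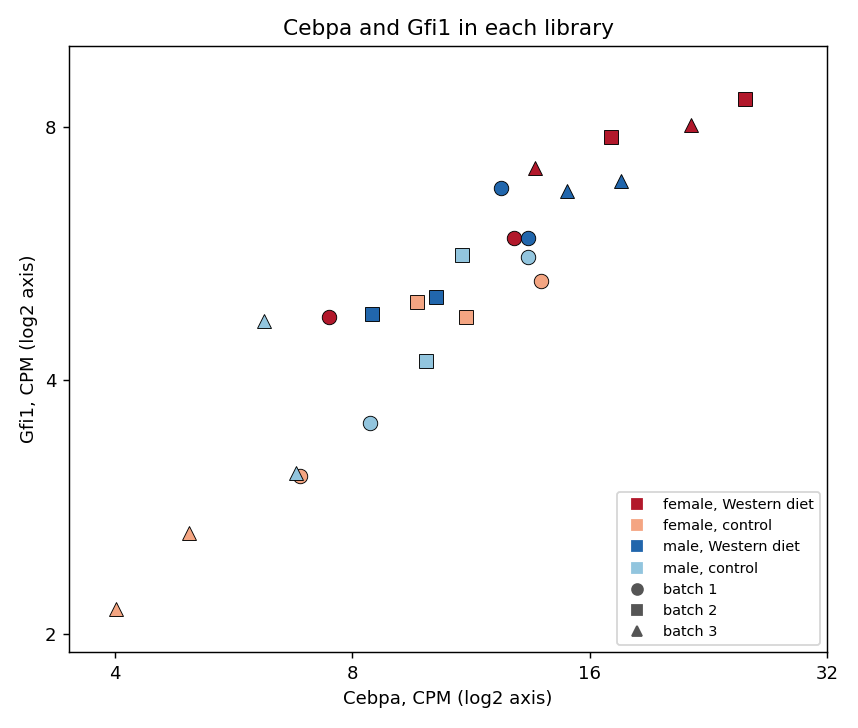
Gfi1 (vertical axis) against Cebpa (horizontal axis), both in CPM on log2 axes, in each of the 24 libraries, coloured by group and shaped by batch. The points rise together with r = 0.93, and the female control libraries of batch 3 lie at its lower end.

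Spi1 and Cebpe formed a second pair, with r = 0.59 (permutation p = 0.00237, adjusted 0.0178), rho = 0.71 (permutation p = 8e-05, adjusted 0.0018), 0.52 without the 2 farthest libraries and 0.88, 0.69 and 0.86 within batches. With Cebpa and Gfi1 their r over all 24 libraries lay between 0.01 and 0.15, with adjusted permutation p of 0.607 to 0.959. These pooled values join unlike parts: within batches 1, 2 and 3 they were -0.06 to 0.29, 0.49 to 0.81 and -0.30 to -0.07. By group they were 0.64 to 0.88 in Western-diet males and -0.38 to 0.40 in control males. In females they were -0.31 to 0.21 with Western diet and -0.91 to -0.05 in controls. Id1 and Id2 correlated at r = 0.71 over all libraries (permutation p = 0.00014, adjusted 0.00315), with rho = 0.66 (permutation p = 0.00079, adjusted 0.00889) and 0.61 without the 2 farthest libraries. Within batches their r was -0.05, 0.33 and 0.61, so the relation did not hold in batch 1. The same was true of Id1 with Zeb2, with r = 0.64 overall (permutation p = 0.00066, adjusted 0.0099), rho = 0.68 (permutation p = 0.00044, adjusted 0.0066), 0.52 without the 2 farthest libraries and -0.13, 0.40 and 0.76 within batches. Cebpe ran against Id2, with r = -0.52 (permutation p = 0.00797, adjusted 0.0326) and rho = -0.44 (permutation p = 0.0342, adjusted 0.103). That value was -0.35 without the 2 farthest libraries and 0.11, -0.74 and -0.87 within batches, so it had the opposite sign in batch 1. Without both female control libraries of batch 3 the number of pairs under an adjusted p of 0.05 was 5 in place of 13, with Cebpa and Gfi1 at r = 0.88.

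**Figure D5:**
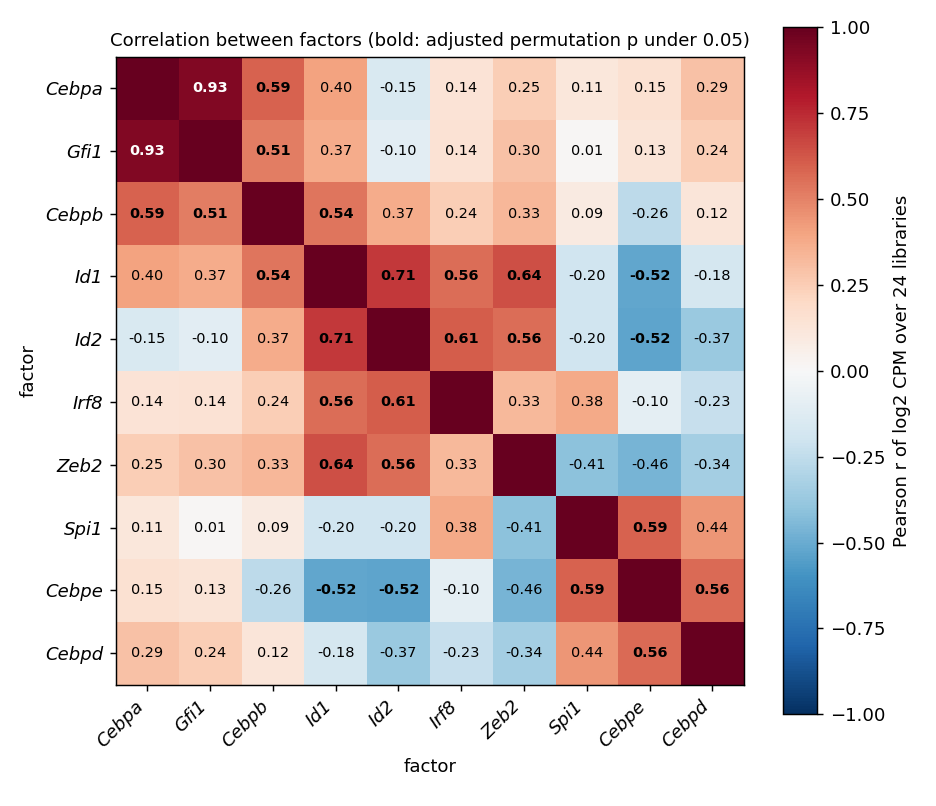
Pearson correlation of log2 CPM over the 24 libraries for every pair of members, from -1 to 1 on the colour scale, with adjusted permutation p under 0.05 in bold. Cebpa and Gfi1 at 0.93 and Id1 and Id2 at 0.71 stand out, and Cebpe is negative with Id1 and Id2 at -0.52.

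For each member the tested gene with the highest Pearson correlation of log2 CPM over the 24 libraries was looked up, leaving out the members themselves. For Cebpa it was Nxn (r = 0.95), with a log2 fold change for diet of 0.81 in females (adjusted p = 0.0646) and 0.39 in males. For Gfi1 it was Adap1 (r = 0.93), at 0.73 in females (adjusted p = 0.0421) and 0.35 in males, and Adap1 was also among the 3 genes closest to Cebpa (r = 0.95). Adap1 was no longer called in females when control females 5 and 6 were left out, at 0.45 (adjusted p = 0.414). Spi1 had Tsen34 (r = 0.97), at 0.25 in females and 0.95 in males. Irf8 had Dbn1 (r = 0.85), at -0.28 and -0.19, and Cebpe had Mfsd5 (r = 0.86), at 0.05 and 0.39. Cebpb had Uchl1 (r = 0.87), at 0.55 and 0.12, and Cebpd had Slc27a4 (r = 0.91), at 0.01 and 0.22. Id1 had Atf4 (r = 0.90), at 0.13 in females and -0.07 in males, and Zeb2 had Lpxn (r = 0.91), at 0.42 and 0.08. Id2 had the MHC class II gene H2-Eb1 (r = 0.92), at -0.47 and -0.44. All of these companions but Adap1 were uncalled for diet in both sexes.

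Other regulators of myeloid fate moved in both directions. Of 24 listed genes, 3 rose and 2 fell in Western-diet females, where 2.2% of all genes were called higher and 3.22% lower, with a median log2 fold change of -0.08 beside 0.03 over all genes, and 0 were called in males. Gfi1b, the paralog of Gfi1 that acts in erythroid and megakaryocyte cells, fell by 1.23 on the log2 scale in females (adjusted p = 0.000714), with means of 93.6 ± 43.4 CPM with Western diet and 226 ± 114 CPM in controls (SD, n = 6 each). The paralogs Gfi1 and Gfi1b were thus called in opposite directions in females. Gfi1b was still called without both female control libraries of batch 3, at -1.11 (adjusted p = 0.0265), and was -0.69 in males (adjusted p = 0.282). Cbfb, the partner of RUNX factors, rose by 0.86 (adjusted p = 0.0140), and Cebpg, a C/EBP protein without an activation domain of its own, rose by 0.75 (adjusted p = 0.0424). Myb, which sustains progenitor growth, rose by 0.52 (adjusted p = 0.0261). Ddit3, a stress-induced C/EBP protein that dimerises with other family members, fell by 0.54 (adjusted p = 0.0224). Without both female control libraries of batch 3 these 4 were no longer called in females, with log2 fold changes of 0.71 for Cbfb, 0.65 for Cebpg, 0.51 for Myb and -0.55 for Ddit3 and adjusted p of 0.212, 0.318, 0.184 and 0.148. Averaged over the sexes 4 rose, among them Klf4 (0.42) and Etv6 (0.31), and 2 fell, where 2.19% of all genes were called higher and 3.51% lower. None of the 4 was called higher in the average once control females 5 and 6 were left out, with 0.36 for Klf4, 0.22 for Etv6, 0.55 for Cbfb and 0.37 for Myb (adjusted p = 0.175, 0.228, 0.0742 and 0.0835). The 2 lower genes, Gfi1b and Ddit3, were still called, at -0.91 and -0.47 (adjusted p = 0.00165 and 0.0187).

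The partners and targets of the members were read against the 5.42% of all genes called in females, 0.0102% in males and 5.7% in the average. Of 7 E proteins and related helix-loop-helix genes, which ID proteins and their targets work through, 0 were called in either sex. Only Tcf4, which encodes E2-2, was called in the average, at 0.22 (adjusted p = 0.0394), a call lost without both female control libraries of batch 3 (0.16, adjusted p = 0.199). Of 8 corepressor genes, 0 were called in either sex or in the average. Hdac1, a histone deacetylase that GFI1 recruits, was at -0.13 in females and -0.09 in males, and Ctbp1, a corepressor of ZEB proteins, was at 0.04 and 0.05. Of 18 target genes of the myeloid factors, 17 had positive values in Western-diet females and 18 in Western-diet males, with medians of 0.39 and 0.21. Over all genes 53.6% of the values in females and 53.8% in males were positive, with medians of 0.03 and 0.02. These counts and medians describe the list and were not tested as a set. The list was chosen with earlier results of these data known, and its genes need not vary independently. In females 1 of the 18 targets was called, a share near that of all genes, and in males 0 were. The called target was Csf2rb, the shared receptor chain for GM-CSF, IL-3 and IL-5, which rose by 0.59 in females (adjusted p = 0.00682), with means of 74.1 ± 15.2 CPM with Western diet and 49.7 ± 14.5 CPM in controls (SD, n = 6 each). Without both female control libraries of batch 3 it was 0.43 in females (adjusted p = 0.142). Csf2rb was also the 1 target called in the average. That call held without those 2 libraries, at 0.38 (adjusted p = 0.0145), and was lost without batch 3, at 0.36 (adjusted p = 0.1045). Mpo and Elane, granule proteins of early neutrophil progenitors, were at 0.60 and 0.60 in females (adjusted p = 0.261 and 0.229).

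Markers of other cell types were read beside these results. Summed over 10 genes of mature erythroid cells, the level was 719 to 2861 CPM in Western-diet females and 1302 to 8655 CPM in control females, and 976 to 3248 CPM in Western-diet males and 2679 to 7020 CPM in control males. Of these 10 genes 5 were called lower in females, where 3.22% of all genes were, and 0 in males. In the average 8 were called lower, where 3.51% of all genes were. With control females 5 and 6 left out, 3 were still called lower in females and 8 in the average. Among those called in females, Slc4a1, Epb42 and Hemgn fell by 1.73, 1.08 and 1.18 on the log2 scale (adjusted p = 0.0135, 0.00914 and 0.000801). Hemgn was still called in females with control females 5 and 6 left out, at -0.96 (adjusted p = 0.0341), while Slc4a1 and Epb42 were not, at -1.51 and -0.93 (adjusted p = 0.161 and 0.153). With the erythroid sum as a covariate, chosen after seeing the data, Gfi1 was still called in females, at 1.00 (adjusted p = 0.0185), and in the average, at 0.79 (adjusted p = 0.0458). With the same covariate Cebpa was called in females, at 1.18 (adjusted p = 0.0376), and no longer in the average, at 1.00 (adjusted p = 0.0634). Cebpe, uncalled with or without it, was 0.05 in females and -0.06 in males with it, against 0.88 in each sex without it. The 10 genes of mature neutrophils summed to 23.3 to 99.4 CPM in Western-diet females and 17.3 to 97.2 CPM in control females, with 0 of the 9 tested called (Ly6g did not pass the filter), and their part in the Gfi1 and Cebpa values was not tested. The 10 monocyte and macrophage genes summed to 327 to 1590 CPM in Western-diet females and 325 to 1638 CPM in control females, with 0 called. The 9 B cell genes summed to 194 to 768 CPM in Western-diet females and 109 to 382 CPM in control females, with Cd79b (0.50) and Igkc (1.63) called higher, 2 of 9 beside the 2.2% of all genes, and their part was not tested either. Neither was called with control females 5 and 6 left out, at 0.31 and 1.25 (adjusted p = 0.436 and 0.142). T and NK cell genes summed to at most 38.9 CPM in any library, and none of 8 was called. Of 7 dendritic cell genes Ccr9 fell by 0.63 in females (adjusted p = 0.0265), where 3.22% of all genes were called lower. It was -0.67 and not called in females (adjusted p = 0.121) with control females 5 and 6 left out. Ccr9 was also called lower in the average, where 3.51% of all genes were. That call held with control females 5 and 6 left out, at -0.65 (adjusted p = 0.00538), and was lost without batch 3, at -0.54 (adjusted p = 0.131). Of 5 mast cell and basophil genes 0 were called in either sex, and Fcer1a alone was called higher in the average, where 2.19% of all genes were. Fcer1a was no longer called there with control females 5 and 6 left out, at 0.59 (adjusted p = 0.145). Of 8 LSK and stem cell genes Mecom alone was called higher in females, where 2.2% of all genes were. With control females 5 and 6 left out Mecom was not called, at 0.40 (adjusted p = 0.243).

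The share of reads that fell in no annotated gene also moved with some members. It was 7.90 to 16.4% in Western-diet females and 8.70 to 9.54% in control females, and 9.16 to 12.6% in Western-diet males and 7.08 to 12.2% in control males. Over the 24 libraries it correlated with Gfi1 at r = 0.52 (permutation p = 0.00959, adjusted 0.0373 over 10 members) and rho = 0.59 (permutation p = 0.00263, adjusted 0.0112), with 0.46 without the 2 farthest libraries and 0.78, 0.63 and 0.43 within batches. For Cebpa r was 0.51 (permutation p = 0.0112, adjusted 0.0373) and rho 0.60 (permutation p = 0.00237, adjusted 0.0112), with 0.52 without the 2 farthest libraries and 0.64, 0.55 and 0.57 within batches. After group and batch means were removed, r was 0.25 for Gfi1 and 0.27 for Cebpa, and with control females 5 and 6 left out it was 0.50 and 0.47. Cebpd and Spi1 were the other members under an adjusted p of 0.05 for r, at r = 0.54 and 0.49. Their rho was 0.58 (adjusted permutation p = 0.0112) and 0.44 (adjusted 0.0689), so Spi1 did not pass by rank. Without the 2 farthest libraries r was 0.39 for Cebpd and 0.41 for Spi1, and with group and batch means removed 0.62 and 0.46. With this share as a covariate, also chosen after seeing the data, Gfi1 in females stayed called at 0.80 (adjusted p = 0.0404) and the average of Cebpa was 0.60 (adjusted p = 0.153), no longer called.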

How the data were processed

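Each library's deposited file gives raw counts per gene, made with FastQC, cutadapt, STAR, HTSeq and the build GRCm39, per the submitters' processing notes, which also name DESeq2. For their versions, the annotation and the strand setting, the entry is: not given in the sources used here. The library kit does not mark strand, so reads of Gfi1, Cebpa, Cebpb and Cebpd cannot be told apart from those of genes on the other strand that overlap their exons by 101, 51, 312 and 562 bases. Exons of Zeb2 overlap Zeb2os and Gm27761 on the other strand and Mir5129 on its own, by 662 bases in all. Between 31.0 and 39.3% of a file's total stood in the last rows from HTSeq (no feature, ambiguous and the like), and these rows were dropped before library sizes were taken.

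Groups and batches came from the labels. Symbols (52081 of 55414 IDs matched), exon lengths and overlaps came from a GRCm38 annotation, an older build than the files'. Promoter windows came from a RefSeq table, which gave an entry for Cebpa, Cebpb, Irf8, Gfi1, Id2 and Zeb2.

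The test was that of edgeR 4.0.16 (R 4.3.3): filterByExpr (19616 genes), TMM, and a robust quasi-likelihood fit with terms for group and batch over all 24 libraries. P-values are two-sided and were adjusted by Benjamini-Hochberg over all genes of a comparison. The 6 comparisons were diet in females, in males and averaged, its male minus female difference, and sex within each diet. Batch was also tested, an addition to the planned comparisons. The fit was tested on simulated counts. No pair of libraries looked like a repeat deposit: the smallest chi-square per degree of freedom between their counts was 22.0. Correlations used log2 CPM with a prior count of 2 and permutation tests that shuffled libraries over all groups and batches.

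Alternatives were RLE scaling, no filter, a filter of at least 1 CPM in 6 libraries, DESeq2 1.42.0, limma-voom (limma 3.58.1), no batch term, a replicate block, only the 2 groups compared, and libraries or batches left out. The limma-voom fit gave each library a quality weight, so that outlying libraries count less. The covariates were added after seeing the data.

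The members and the lists were chosen with earlier results of these data known. Named were all members, called genes of the lists (otherwise up to 2 with the most counts), and the gene most like each member. Not every gene this takes is described, some are not reported here, and Mpo and Elane were added after their values were seen. Of 134 list symbols 133 matched (Ahsp did not).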

Additional observations from a re-analysis of the deposited data

Results flagged for a closer look

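In 4 of 40 combinations of member and group, 1 library stood apart from the other 5 by Dixon's test at the 95% level, which chance passes in about 1 of 20 groups. Cebpd reached 6.57 CPM in control female replicate 5, the highest of its group and one of the libraries that stand apart on the first principal component. Cebpe reached 17.9 CPM in control male replicate 6, the highest of its group. Irf8 was at 204 CPM in Western-diet male replicate 3, and Id1 was at 2.97 CPM in Western-diet female replicate 3, each the lowest of its group. That Western-diet female library also held the highest Cebpe level of all 24, at 49.8 CPM.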

How the results depend on the processing

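For diet in females the number of members called, 1 in the fit reported, was 2 with RLE factors, the stricter filter, DESeq2, without batch 1, and with either covariate, and 3 without a filter and within batch 3. The 2 were Cebpa and Gfi1, except with the no-feature share as covariate, where they were Gfi1 and Zeb2 (adjusted p = 0.0481 for Zeb2). The number was 0 with only the 2 groups compared, without batch 2, without batch 3, within batch 1, within batch 2, and without both female control libraries of batch 3. Leaving out single libraries gave 0 to 2, with 0 without control female replicate 5 or 6. Averaged over the sexes the number, 2 as reported, was 4 without a filter, 3 within batch 3 (Cebpa, Gfi1 and Id1), 1 without the batch term, without batch 2 and with either covariate, and 0 within batch 1, within batch 2, without batch 3 and without both female control libraries of batch 3, with 1 to 2 when single libraries were left out. Without a filter 2 members were called in males (Cebpe and Spi1), 1 for the difference between the sexes (Spi1) and 2 for sex in controls, where 0 were reported. Calls over all 37858 genes rose too, to 380, 572 and 1296 in these comparisons, against 2, 0 and 22 as reported. In the average 1693 genes were called without a filter and 1781 of 19456 within batch 3, against 1118 as reported. The causes were not tested. Pairs of members under an adjusted p of 0.05 were 13 as reported, 11 with group and batch means removed and 5 without both female control libraries of batch 3. Among diet values with an unadjusted p under 0.05 as reported, directions turned for Cebpa in females (-0.033 within batch 1), Cebpb in the average (-0.15 within batch 1), Gfi1 in males (-0.0046 within batch 2) and Cebpe in the average (-0.0096 within batch 3 and -0.0046 with the erythroid covariate). Among the other diet values the sign turned in 23 more of 410 values in females, 22 of 410 in males and 18 of 400 in the average. Among the female values Spi1 turned most often, in 8 of 41 settings, down to -2.30 within batch 3. In the average Irf8 turned in 8 of 40. Genes called over the whole table for diet in females were 1064 as reported, 1805 by DESeq2, 2023 without a filter, 358 with only the 2 groups, 154 without both female control libraries of batch 3, 146 without batch 3, and 0, 22 and 2719 within batches 1, 2 and 3. Replicate numbers gave no clear pairing of the libraries. Libraries of the same number correlated at -0.248 to 0.354 in their deviations from group means, and those of another number in the same batch at -0.079 to 0.425. In each comparison 2 or 3 of 6 correlated best with their own number. These values cannot show whether pups share a litter. With the replicate block 1 member was called in females, 0 in males and 2 in the average, with Gfi1 at 0.91 and 0.69, and 827 genes were called in females. Depth limits Cebpb, Cebpd and Gfi1 most, with as few as 26, 38 and 86 counts in a library.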
